A study of Mus musculus with 24 samples.

Results

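The total RNA of spinal cord taken 10 days after a contusion was compared with that of uninjured, naive cord. The samples were chosen by their labels: 3 total RNA libraries of day post-injury (dpi) 10 and 3 of naive mice, which are 6 of the 24 libraries of the study. All mice, naive mice included, were OL-Ribotag mice (plp-cre;rpl22HA), in which tamoxifen-driven recombination tags the ribosomes of oligodendrocytes (OLs). The injured mice received a contusive spinal cord injury (SCI) at thoracic level T9 from an IH impactor set to 50 kdyn, and the labels give female mice of 10 to 12 weeks. Total RNA here is polyadenylated RNA from a sample of the cleared lysate set aside before the tagged ribosomes were pulled down, so it comes from every cell type of a cord segment that spans the lesion. Each library pools the segments of more than 1 mouse. Naive cord had neither laminectomy nor contusion, and by the study's account it was collected together with the dpi 42 tissue. Surgery and contusion cannot be told apart in this comparison, nor can injury and the greater age of the naive mice and their longer time after tamoxifen. In bulk tissue, fewer cells of a type and less RNA per cell cannot be told apart either.

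A contusion kills neurons and glia at the impact site, opens the blood-brain barrier and leaves large amounts of broken myelin, which is rich in cholesterol. In the following weeks blood-derived macrophages and resident microglia take up this debris and degrade it in lysosomes, perivascular fibroblasts lay down a collagen-rich core, and reactive astrocytes enclose the lesion. OLs die, and their precursors (OPCs) divide and form new myelinating cells.

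The 6 libraries held 27135366 to 28552424 counts, and in a principal component analysis of the 12 total RNA libraries the naive libraries lay at -110.9 to -107 on the first component (45.92% of the variance) and the dpi 10 libraries at 41.87 to 51.43. Levels are CPM, that is counts scaled to a common library size by the trimmed mean of M values (TMM), and the q of each contrast is edgeR's quasi-likelihood p after Benjamini-Hochberg correction for 17167 genes. The naive pools were not alike in position along the cord. The summed level of the 11 Hox genes of paralog groups 10 to 13, which mark lumbar and more caudal cord, was 9.57, 153 and 215 CPM in naive pools 1, 2 and 3, against 41.1, 23.8 and 16.3 CPM in the dpi 10 pools. The summed level of the 27 Hox genes of groups 1 to 9 was 1017 to 1074 CPM in naive and 729 to 809 CPM in dpi 10 libraries. The thoracic genes Hoxc8, Hoxc9 and Hoxa9 were present in every library, at a sum of 128 to 185 CPM in naive and 112 to 127 CPM at dpi 10. Of these, Hoxc8 was at 144, 63.0 and 51.8 CPM in naive pools 1, 2 and 3 and at 51.8, 56.3 and 79.5 CPM in the dpi 10 pools. Naive pools 2 and 3 therefore held more caudal transcripts than naive pool 1 or any dpi 10 pool, and the results on neurons, sterol synthesis and mitochondria are also given with naive pool 1 as the only naive total RNA library, a choice made after the data were seen. In that fit fewer genes passed of all 17112 tested, with 1103 rising and 1349 falling.

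**Figure D1:**
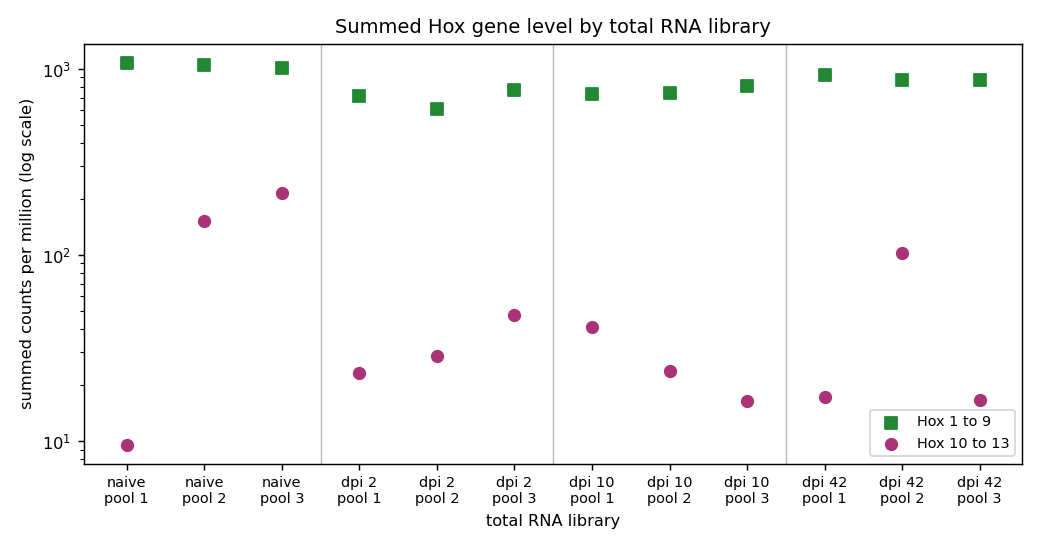
Summed CPM of Hox genes of groups 1 to 9 and of groups 10 to 13 in each of the 12 total RNA libraries (1 point per library). Groups 10 to 13 stand at 153 and 215 CPM in naive pools 2 and 3 but at 9.57 CPM in naive pool 1, and at 16.3 to 41.1 CPM in the dpi 10 pools.

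Nerve root and ganglion were sampled unevenly as well. Prx (periaxin), a gene of Schwann cells, was at 0.459, 0.322 and 23.5 CPM in the naive pools and at 34.5, 17.1 and 18.6 CPM in the dpi 10 pools (q = 0.415), so naive pool 3 lay within the dpi 10 range. Scn10a, a sodium channel of sensory neurons of the dorsal root ganglion, was at 0 in all naive pools and at 8.57, 0 and 0 CPM at dpi 10, so pool 1 of dpi 10 held ganglion transcripts. The defining markers of spinal cord were present in all libraries. The summed level of 5 neuronal markers (Rbfox3, Snap25, Syt1, Nefl, Nefm) was 8558 to 9123 CPM in naive and 3645 to 4012.5 CPM in dpi 10 libraries, and all 5 fell. The summed level of 6 mature OL markers was 21986 to 27317 CPM and 22948 to 23781 CPM. The 5 microglia and macrophage markers all rose (180 to 213 CPM in naive, 1124 to 1454 CPM at dpi 10), and so did the 4 fibroblast markers (24.5 to 44.0 CPM and 1497 to 1671 CPM). Neutrophil markers reached 18.8 to 34.0 CPM, blood markers 10.5 to 36.7 CPM and lymphocyte markers 0.979 to 1.3 CPM at dpi 10.

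Of 17167 genes tested, 2392 (13.9%) rose and 3127 (18.2%) fell at q under 0.05. Past 2-fold the order turned, with 1580 genes (9.2%) rising and 527 (3.07%) falling. The 1580 genes took 1.95% to 2.07% of all counts in naive and 12% to 14% in dpi 10 libraries, whereas the 527 genes went from 12.5% to 13.4% down to 6.12% to 6.71%. Every dpi 10 library lay above every naive library for 4199 genes (24.5%) and below for 6289 (36.6%). The balance between rising and falling calls depended on the scaling. Of all calls 43.3% were rises with TMM factors, which were 1.1 to 1.11 in naive and 1.23 to 1.26 in dpi 10 libraries, but 62.5% with library sizes alone and 33% with an offset for gene length and GC content. The median log2 fold change (Log2FC) over all genes was -0.10 and moved by 0.16 with library sizes alone, by 0.13 with the 12 total RNA libraries fitted alone, by 0.14 with the 6 libraries fitted alone and by -0.13 with the offset. Small changes near this median should be read against it.

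The genes with the smallest p that rose past 2-fold were largely of the lysosome and of phagocytes: Ctsz, Grn, Lyz2, Ctsd, Unc93b1, Hexa, Cd9, Ftl1, Tyrobp, Arpc1b and Man2b1. Those that fell were Dzank1, Trim37, Tfrc, Sucla2, Extl2, Ccdc85c, Zyg11b, Mapk10, Amigo1, Brsk2, Aak1 and Mapk9, and their Log2FC ran from -1.56 for Tfrc, the transferrin receptor, to -1 for Zyg11b. Amigo1, Brsk2 and the JNK kinase gene Mapk10 are known for roles in neurons. Among falling genes with a mean of at least 5 CPM in naive, those with the largest change were Kirrel2, Glra1, Oprm1, Lingo4, Olfm3 and Stxbp5l, of which Kirrel2 stood at 19.6% of its naive level and Stxbp5l at 27.8%. The falls of Oprm1 and Lingo4 were lost when any of the 6 libraries was left out (q = 0.0782 to 0.121 and 0.061 to 0.118), and that of Kirrel2 without pool 2 of dpi 10 (q = 0.0592). The 6 rising genes with the largest change, among those with a mean of at least 5 CPM at dpi 10, had no count in any naive library. Measured against 3 counts in a naive library, Atp6v0d2, a proton pump subunit of osteoclasts and macrophages, was at least 411-fold higher, the scavenger receptor gene Msr1 at least 263-fold, the organic cation exporter gene Slc47a1 at least 236-fold, the collagenase gene Mmp13 at least 110-fold, the endolysosomal channel gene Mcoln3 at least 108-fold and the C-type lectin gene Clec4d at least 104-fold.

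**Figure D2:**
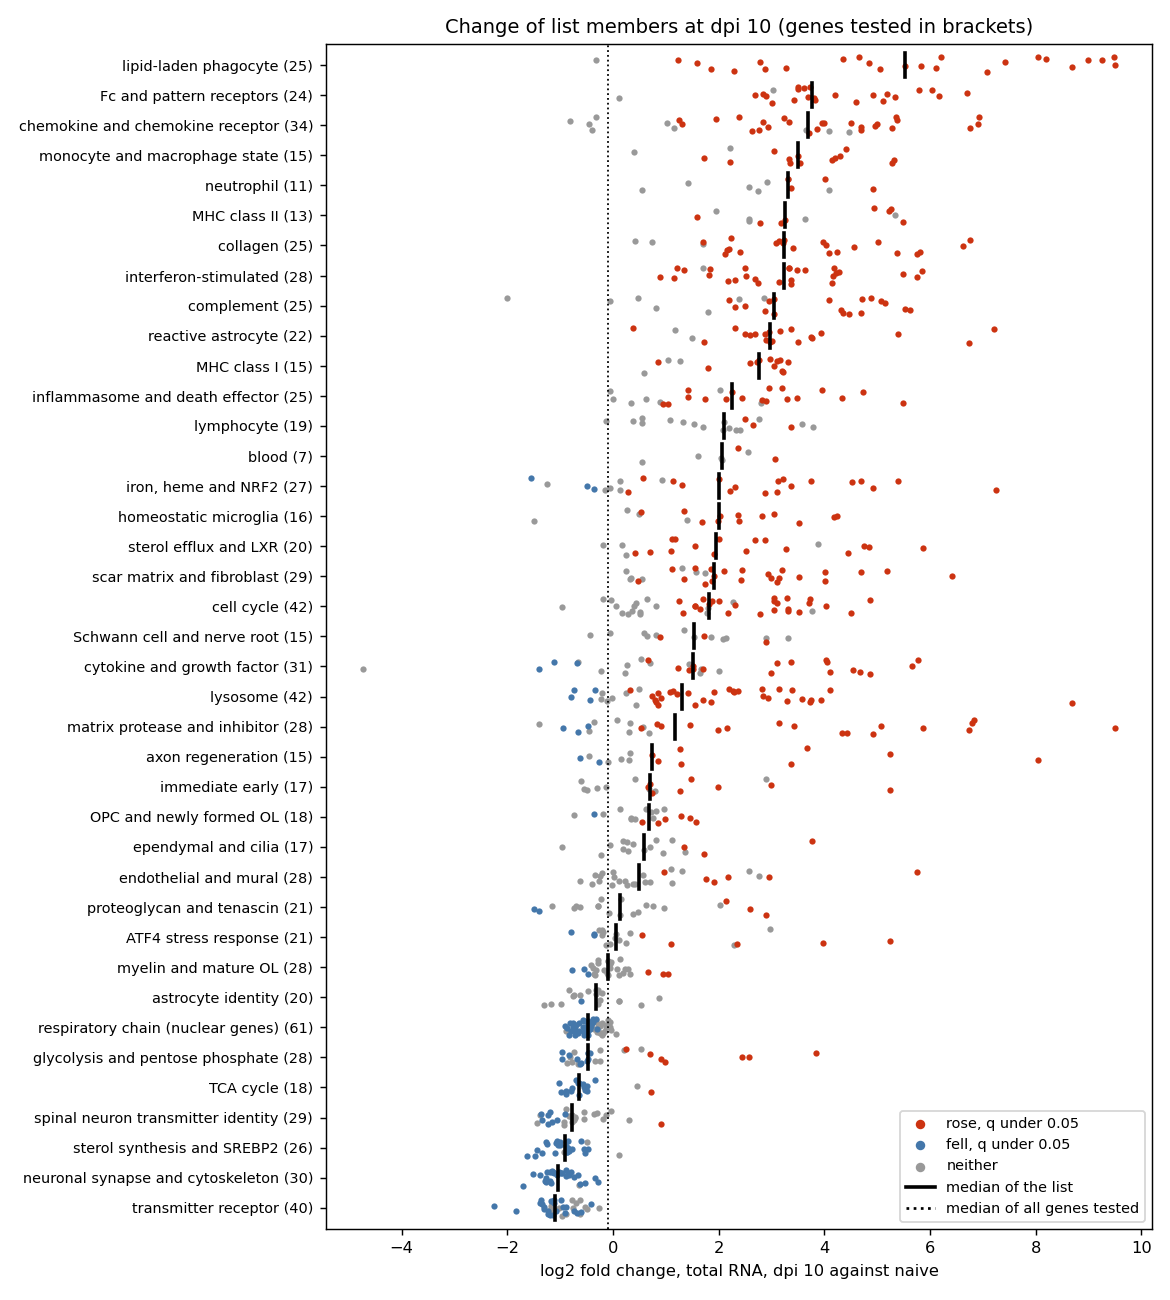
Log2FC of dpi 10 over naive in total RNA for the members of each gene list (1 point per gene, coloured by call at q under 0.05), with the list median as a bar and the median of all genes (-0.10) as a dotted line. Genes with at most 3 counts in every naive library are drawn at the change from 3 counts. Phagocyte, complement, interferon-stimulated and collagen genes lie to the right, while neuronal, sterol synthesis and respiratory chain genes lie to the left.

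Transcripts of phagocytes loaded with lipid had the highest median of the 41 gene lists. Of 25 genes tested 24 rose and none fell, with a median Log2FC of 5.53. Lyz2 (chr10:117277331-117282321, GRCm38, minus strand), the lysozyme of macrophages, was at 10.8, 7.83 and 7.07 CPM in the naive and at 2631, 2861 and 1996 CPM in the dpi 10 libraries (Log2FC 8.19 ± 0.31 SE, q = 9.66e-14). By raw counts it went from rank 10218 to rank 9 among all genes. Gpnmb, a glycoprotein of lipid-laden macrophages chosen after its values were seen, was at 3.74, 2.13 and 1.01 CPM in naive and at 1536, 2071 and 1292 CPM at dpi 10. Tyrobp, the adaptor of the lipid-sensing receptor Trem2, stood at 12.1 ± 2.03 CPM (SD, n = 3) in naive and 304 ± 29.4 CPM at dpi 10. Trem2 itself was at 12.1, 12.2 and 12.2 CPM in naive and at 243, 277 and 223 CPM at dpi 10 (Log2FC 4.34 ± 0.26, q = 1.15e-10). Cd68, a lysosomal membrane protein of macrophages, rose 56.6-fold. For all of these genes the groups were far apart. The member that did not pass was Pla2g7 (306 ± 20.2 CPM in naive, 246 ± 15.2 CPM at dpi 10, q = 0.818).

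**Figure D3:**
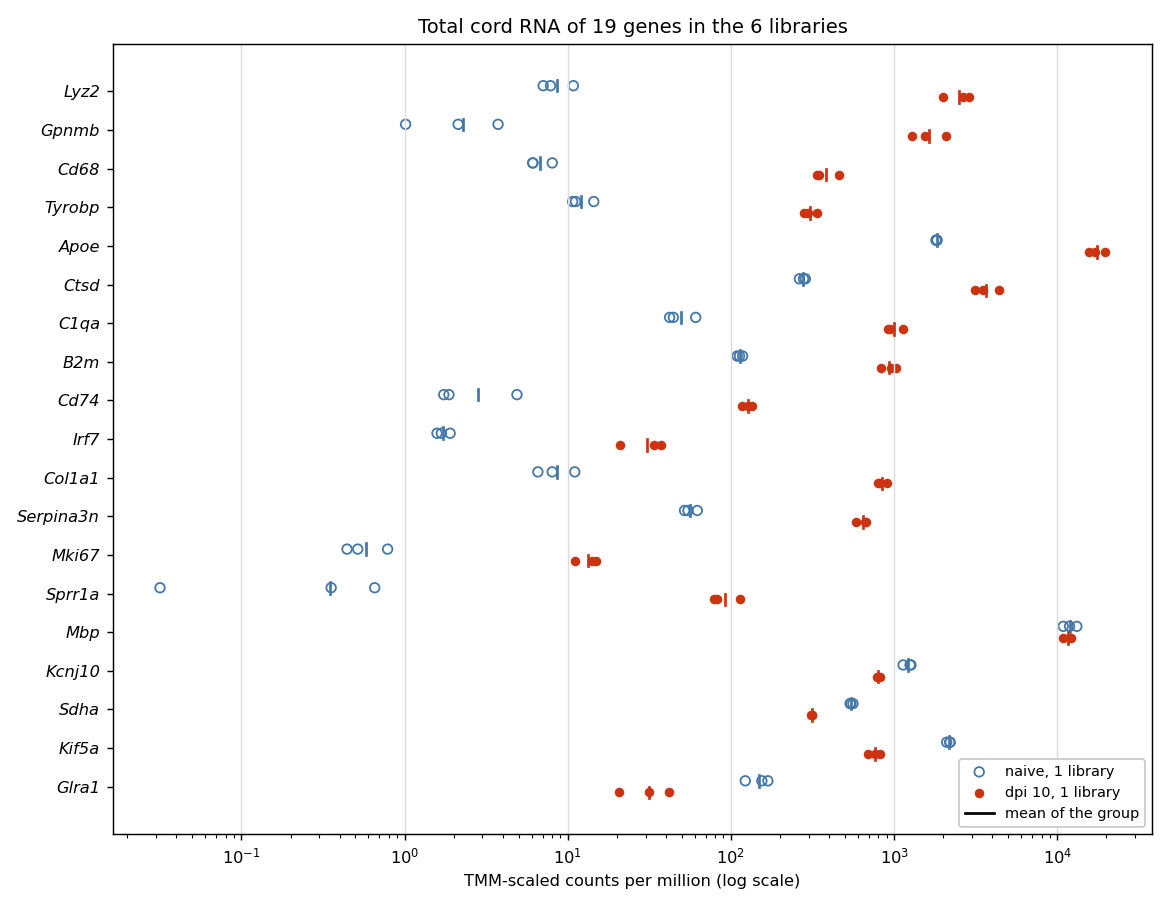
CPM (log axis) of 19 genes in each of the 3 naive and 3 dpi 10 total RNA libraries, 1 point per library. Lyz2 goes from 7.07 to 10.8 CPM up to 1996 to 2861 CPM, while Mbp overlaps between the groups and Kif5a and Glra1 lie lower at dpi 10.

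Genes of resident microglia also rose, but less. Of 16 tested 12 rose and none fell (median Log2FC 2.00). Fcrls, a receptor-like gene of resident microglia, was at 14.8, 11 and 11.4 CPM in naive and at 206, 268 and 203 CPM at dpi 10 (18.2-fold, q = 2.07e-10). The fractalkine receptor gene Cx3cr1 rose 5.25-fold and the colony stimulating factor receptor gene Csf1r 5.12-fold. Slc2a5, a fructose transporter, went against the list, with 6.3, 5.96 and 4.22 CPM in naive and 2.46, 2.16 and 1.23 CPM at dpi 10 without overlap (q = 0.379, but 0.00619 with the 12 total RNA libraries fitted alone). P2ry13, a nucleotide receptor of resting microglia, was at 12.3 ± 1.81 CPM and 32.5 ± 5.21 CPM (q = 0.0989). Of 15 genes of monocytes and macrophage states 13 rose and none fell (median 3.54). Among these Itgam (CD11b) rose 8.31-fold, Adgre1 (F4/80) 11.6-fold and Mrc1, the mannose receptor of border macrophages, 18.3-fold. Microglia, infiltrating macrophages and border macrophages share many of these transcripts, so the lists do not count cells.

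The promoters of the lipid-laden phagocyte genes were searched for GAGGAAGT, a core bound by the myeloid factor PU.1, on both strands of windows from 250 bases before to 50 bases after each gene start (RefSeq, GRCm38.p6). It was found in 2.94% of the 16653 windows of all genes tested and in 9.30% of those of the lysosomal gene list. Among the lipid-laden phagocyte genes 2 of 23 windows (8.70%) held it. Both hits are shown, with the match in capitals and the gene start at base 251. Spp1 (osteopontin) rose 6.89-fold, from 150, 156 and 121 CPM to 881, 1209 and 853 CPM. Mmp12, the macrophage elastase, was at 0.164, 0 and 0 CPM in naive and 30.8, 60.2 and 34.8 CPM at dpi 10 (q = 1.32e-07). In Mmp12 the match lies on the strand opposite to the gene. A match is a run of letters and not a measured site.
Spp1 (chr5:104434861-104435160, plus strand): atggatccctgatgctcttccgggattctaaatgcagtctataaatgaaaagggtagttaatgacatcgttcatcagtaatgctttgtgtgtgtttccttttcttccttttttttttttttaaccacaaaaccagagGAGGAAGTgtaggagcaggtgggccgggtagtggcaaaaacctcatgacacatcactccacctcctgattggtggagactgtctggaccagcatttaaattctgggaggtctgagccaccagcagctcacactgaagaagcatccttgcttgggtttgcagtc
Mmp12 (chr9:7344147-7344446, plus strand): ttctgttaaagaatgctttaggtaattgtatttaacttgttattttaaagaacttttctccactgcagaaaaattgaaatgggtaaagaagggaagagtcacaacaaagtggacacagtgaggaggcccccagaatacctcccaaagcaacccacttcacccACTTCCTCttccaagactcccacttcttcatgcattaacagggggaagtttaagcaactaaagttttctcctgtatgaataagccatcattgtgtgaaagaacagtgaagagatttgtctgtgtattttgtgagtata

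Lysosomal genes rose broadly. Of 42 tested 31 rose and 4 fell (median Log2FC 1.31), and their summed level went from 7681 to 8108 CPM in naive up to 20127 to 25313 CPM at dpi 10. Ctsd (chr7, the aspartic protease cathepsin D) was at 286, 278 and 263 CPM in naive and 3517, 4376 and 3108 CPM at dpi 10 (Log2FC 3.73 ± 0.14, q = 1.13e-13), and its count rank moved from 512 to 7. Ctsz, a carboxypeptidase, rose 11.9-fold (q = 9.66e-14), Grn, the precursor of lysosomal granulins, 15.4-fold (q = 9.66e-14) and Hexa 7.14-fold. The groups did not overlap for any of these genes. The members that fell included subunits of the proton pump that acidifies vesicles of all cells, synaptic vesicles among them. Atp6v1a went from 457 ± 10.6 to 262 ± 17 CPM (q = 2.22e-05) and Atp6v1b2 from 625 ± 11.4 to 374 ± 5.88 CPM (q = 1.87e-05). The motif GTCACGTGA, a core of the CLEAR element of lysosomal genes, was found in 5 of 43 promoter windows of the list (11.6%) and in 1.23% of all windows (both strands).

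Genes that carry cholesterol out of cells and genes that make it moved in opposite directions. Of 20 genes of sterol efflux and of the liver X receptor program 16 rose and none fell (median Log2FC 1.96). Apoe (chr7), the main cholesterol carrier of the nervous system, was at 1829, 1804 and 1827 CPM in naive and at 17074, 19652 and 15740 CPM at dpi 10 (9.61-fold, q = 1.79e-05). It took 0.198% to 0.202% of all counts in naive and 1.99% to 2.43% at dpi 10, where it ranked first. Npc2, which moves cholesterol out of lysosomes, rose 2.91-fold and the lipoprotein lipase gene Lpl 28.8-fold. The exporter gene Abca1 rose 5.76-fold (41.4 ± 1.66 to 238 ± 59.8 CPM). Apoe and Abca1 were chosen after their values were seen.

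Of 26 genes of sterol synthesis and its regulator SREBP2, 23 fell and none rose (median Log2FC -0.91). Their summed level went from 2348 to 2440 CPM in naive to 1154 to 1230 CPM at dpi 10. Insig1, a sterol-controlled brake on SREBP2, was at 134, 130 and 146 CPM in naive and at 55.7, 49.1 and 56.5 CPM at dpi 10, or 39.4% of naive (q = 3.53e-06). Srebf2, the gene of SREBP2, fell to 58.6% (q = 1.78e-06) and the demethylase gene Cyp51 to 48.9%. Each of these genes was lower in every dpi 10 library than in any naive library. With naive pool 1 as the only naive library 20 of the 26 fell and the median was -0.96.

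Complement and receptor genes of innate immunity rose. Of 25 complement genes 18 rose and none fell, with a median Log2FC of 4.31, or 3.05 when genes with at most 3 counts in every naive library are set at the change from 3 counts. The subunits of C1q, which tags debris and synapses for uptake, rose together. C1qa was at 60.8, 42.1 and 44.3 CPM in naive and at 939, 1141 and 912 CPM at dpi 10 (20.3-fold, q = 4.41e-11), C1qb rose 17.1-fold and C1qc 19.8-fold. Itgb2, the shared chain of the complement receptors, rose 22-fold. Among 24 Fc and pattern recognition receptors 22 rose and none fell (median 3.77), with Fcgr1 at 13.2-fold, Fcer1g at 24.3-fold, the kinase gene Syk at 11.3-fold and the inhibitory receptor gene Fcgr2b at 30.2-fold.

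Of 34 chemokines and their receptors 25 rose and none fell (median Log2FC 4.49, or 3.68 with bounds for genes near 0 in naive). Cxcl16, a chemokine that also binds oxidized lipoprotein, rose from 2.42 ± 0.755 to 62.7 ± 12.5 CPM and Cxcr4 16-fold. Ccl3 was near 0 in naive (0.0656, 0.290 and 0.0951 CPM) and at 17.9, 15.1 and 16.9 CPM at dpi 10. Of 31 cytokines and growth factors 17 rose and 3 fell (median 1.52). Igf1, a growth factor made by microglia and macrophages, went from 6.98, 6.13 and 4.44 CPM to 161, 193 and 157 CPM (29.1-fold, q = 1.16e-09). Tgfb1 rose 10.3-fold and Csf1, the ligand of Csf1r, 2.36-fold. Of 25 genes of the inflammasome and of cell death effectors 18 rose and none fell (median 2.26), among them Zbp1, Bak1, the pore-forming gasdermin gene Gsdmd (7.72-fold) and the adaptor gene Pycard (9.82-fold).

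Antigen presentation and interferon-stimulated genes were higher at dpi 10. Of 15 MHC class I genes 12 rose and none fell (median Log2FC 2.77), and of 13 MHC class II genes 8 rose and none fell (median 3.25). The class I light chain gene B2m was at 118, 109 and 113 CPM in naive and at 835, 1020 and 954 CPM at dpi 10 (8.27-fold). H2-D1 rose 6.82-fold, H2-K1 7.85-fold and the peptide loading factor gene Tapbp 3.48-fold. The class I heavy chain genes are near-identical in sequence, so their counts may be shared between them. Cd74, the invariant chain of class II, was at 1.74, 1.87 and 4.88 CPM in naive and at 117, 135 and 128 CPM at dpi 10 (q = 5.39e-09), and H2-Aa, H2-Eb1 and H2-Ab1 rose with it by 30.8-fold to 38.6-fold.

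Of 28 interferon-stimulated genes 27 rose and none fell (median Log2FC 3.23). The regulator gene Irf7 was at 1.90, 1.58 and 1.68 CPM in naive and at 21, 37.4 and 33.7 CPM at dpi 10 (17.8-fold, q = 1.19e-08). Bst2 (tetherin) rose 18.2-fold, the nucleic acid sensor gene Zbp1 44.6-fold and Irf9 4.97-fold. Ifit3b, the member that did not pass, was at 5.48 ± 0.243 and 17.9 ± 4.29 CPM (q = 0.0769). The sequence GAAANNGAA, a core of the interferon-stimulated response element, occurred on either strand of 14 of 23 promoter windows of the list (60.9%), against 7.31% of all windows. The windows of Bst2 and Ifitm3, the members with the smallest p among those that hold it, are shown with the matches in capitals. In Bst2 the overlapping matches begin 130 and 124 bases before the gene start, and in Ifitm3, which rose 10.0-fold, they begin 2 and 19 bases after it.
Bst2 (chr8:71537423-71537722, minus strand): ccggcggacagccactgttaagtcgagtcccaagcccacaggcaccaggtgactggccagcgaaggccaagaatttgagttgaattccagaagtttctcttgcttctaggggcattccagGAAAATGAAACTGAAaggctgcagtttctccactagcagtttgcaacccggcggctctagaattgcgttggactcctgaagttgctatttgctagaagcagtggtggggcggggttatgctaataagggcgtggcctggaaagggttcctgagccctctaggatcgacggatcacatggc
Ifitm3 (chr7:141010695-141010994, minus strand): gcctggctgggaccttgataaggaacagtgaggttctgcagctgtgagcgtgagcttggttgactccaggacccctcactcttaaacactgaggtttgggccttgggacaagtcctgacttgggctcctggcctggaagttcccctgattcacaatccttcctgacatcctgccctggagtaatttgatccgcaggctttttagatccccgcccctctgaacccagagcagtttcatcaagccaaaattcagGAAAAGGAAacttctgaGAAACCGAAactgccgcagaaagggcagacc

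A larger share of neutrophil genes than of lymphocyte genes passed the test. Of 11 neutrophil genes 4 rose (36.4%, against 13.9% of all genes) and none fell, at a median Log2FC of 3.31. By DESeq2 6 rose, and with the 12 total RNA libraries fitted alone 8 rose. The 4 were led by the granulocyte colony stimulating factor receptor gene Csf3r (6.22 ± 0.499 to 64.1 ± 7.85 CPM) and by S100a9 (1.36 ± 0.857 to 13.5 ± 4.68 CPM). Csf3r held much of the summed level of the 11 genes, which was 7.04 to 12.3 CPM in naive and 80.2 to 116 CPM at dpi 10. Which cells expressed Csf3r was not tested. Of 19 lymphocyte genes 3 rose, a share of 15.8% that was near the 13.9% of all genes. The count was 0 to 2 by edgeR when any of the 6 libraries was left out (0 without naive pool 1 or naive pool 2) and 9 with the 12 total RNA libraries fitted alone. Levels stayed low: Cd3e was at 0, 0 and 0.0317 CPM in naive and at 0.475, 0.952 and 0.430 CPM at dpi 10 (q = 0.0294, but 0.106, 0.108 and 0.0730 without naive pool 1, naive pool 2 or dpi 10 pool 2). Of 7 blood genes Hba-a1 and its near-identical copy Hba-a2 rose. Hba-a1 was at 1.51, 1.26 and 0.0317 CPM in naive and at 2.17, 10.1 and 11.1 CPM at dpi 10 (q = 0.0258), and the call was lost without naive pool 2 or 3 or dpi 10 pool 2 or 3 (q = 0.0575 to 0.0893, and 0.0637 to 0.142 for Hba-a2). Blood left in the tissue and invading cells were not tested apart. None of 11 skeletal muscle and sensory ganglion genes and none of 4 Y-linked genes passed the test by edgeR in the fit of all 24 libraries. At an unadjusted p under 0.05, and by DESeq2 as well, 3 of the former and none of the latter rose, and with the 12 total RNA libraries fitted alone 4 of the former rose.

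Of 27 genes of iron, heme and oxidative stress 18 rose and 3 fell (median Log2FC 2.00). Ftl1, the light chain of the iron store ferritin, was at 125, 124 and 107 CPM in naive and at 1199, 1380 and 1104 CPM at dpi 10 (10.3-fold, q = 4.12e-12). The NADPH oxidase subunit genes Cyba and Ncf1 rose 25.7-fold and 9.31-fold, and Slc11a1, a metal transporter of phagosomes, 30.1-fold. Tfrc, which imports iron, was at 119, 123 and 184 CPM in naive and at 44.3, 44.9 and 55.3 CPM at dpi 10, or 34.0% of naive (q = 1.2e-07). The groups did not overlap for any of these genes.

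Collagen genes, which fibroblasts express in scar tissue, were higher at dpi 10. Of 25 tested 22 rose and none fell (median Log2FC 3.24), and the summed level went from 192 to 216 CPM in naive up to 2885 to 3241 CPM at dpi 10. Col1a1, a chain of fibrillar type I collagen, was at 6.56, 8.03 and 11.0 CPM in naive and at 793, 899 and 823 CPM at dpi 10 (98.1-fold, q = 2.12e-10). Col1a2 rose 17-fold, the microfibril gene Col6a1 56.4-fold and Col16a1 4.37-fold. Of 29 other genes of scar matrix and fibroblasts 22 rose and none fell (median 1.92), with Tgfbi at 7.95-fold, Postn (periostin) at 36.3-fold, Fn1 (fibronectin) at 16-fold and the collagen chaperone gene Serpinh1 at 8.60-fold.

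Of 28 matrix proteases and inhibitors 17 rose and 3 fell (median Log2FC 1.18). Adam8 rose 58.4-fold, the gelatinase gene Mmp2 8.84-fold, and the plasminogen activator gene Plau went from 2.16 ± 0.655 to 43.3 ± 7.29 CPM (q = 4.13e-08). Chondroitin sulfate proteoglycans and tenascins are known as barriers to axon growth. Their list, which also holds other proteoglycans, a hyaluronan receptor and link proteins, did not move as a group. Among the 21 tested 3 rose (14.3%, against 13.9% of all genes) and 2 fell (9.52%, against 18.2%), at a median of 0.13. The counts were 8 and 5 with the 12 total RNA libraries fitted alone. The rising genes were led by the surface proteoglycan gene Sdc1 (7.46-fold) and the hyaluronan receptor gene Cd44 (6.05-fold). Hapln4 and Hapln1, link proteins of the nets around neurons, fell to 37.7% and 35.7% of naive.

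Among 22 genes of reactive astrocytes 20 rose and none fell (median Log2FC 2.96). Serpina3n, a serine protease inhibitor, was at 62.2, 54.5 and 51.9 CPM in naive and at 660, 674 and 588 CPM at dpi 10 (11.4-fold, q = 6.81e-11). Timp1, an inhibitor of metalloproteases, was at 0.334 ± 0.0854 CPM in naive and 36.0 ± 1.43 CPM at dpi 10. The ferroxidase gene Cp rose 7.32-fold and Emp1 8.10-fold. Several of these genes are also made by macrophages and fibroblasts. The paper lists Serpina3n among secreted-protein genes upregulated in OLs acutely after SCI. It proposes OLs as the main source of such products at that time. Serpina3n also rose more in OL RNA than in total RNA at dpi 10, as given below. Which cells its rise in total RNA came from was not tested, so it is not a measure of astrocytes alone. Of 20 genes of astrocyte identity 1 fell and none rose (median -0.32): Kcnj10, the potassium channel of astrocytes and OLs, went from 1218 ± 72.4 to 800 ± 21.1 CPM (q = 0.000624).

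The calls on astrocyte genes differed between the fit of all 24 libraries and that of the 12 total RNA libraries, which changes the scaling and the genes tested as well as the spread. Gfap was at 2019, 1630 and 1067 CPM in naive and 4356, 4684 and 4213 CPM at dpi 10 without overlap, yet its q was 0.105 in the fit of all 24 libraries and 2.48e-07 with the 12 total RNA libraries fitted alone. The glutamate transporter gene Slc1a2 was at 2602 ± 95.3 and 1456 ± 42.3 CPM (q = 0.416, and 3.4e-05 with the 12 libraries), and the water channel gene Aqp4 at 656 ± 64.2 and 1192 ± 68.9 CPM (q = 0.406, and 2.02e-07). With the 12 libraries alone 3 astrocyte identity genes rose and 9 fell.

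Neuronal transcripts were lower at dpi 10. Of 30 genes of synapses and the neuronal cytoskeleton 29 fell and none rose (median Log2FC -1.04), and their summed level went from 26028 to 27611 CPM in naive to 12179 to 13189 CPM at dpi 10. Kif5a, a kinesin of axonal transport, was at 2206, 2190 and 2099 CPM in naive and at 761, 694 and 823 CPM at dpi 10, or 35.1% of naive (q = 1.04e-06). The sodium channel gene Scn1a fell to 30.9% and the endocytic adaptor gene Snap91 to 48.9%. No dpi 10 library reached the lowest naive library for any of them. Thy1, the member that did not pass, was at 747 ± 31.8 and 476 ± 23.2 CPM (q = 0.188). The count was 23 of the 30 with library sizes alone, at a median of -0.86. With naive pool 1 as the only naive library the median was -1.01. That pool held few caudal transcripts but more Hoxc8 than any dpi 10 pool, and the part of cord position in the change was not tested.

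Of 29 genes that define transmitter classes of spinal neurons 8 fell and 1 rose (median Log2FC -0.78). Slc17a6, the vesicular glutamate transporter of excitatory neurons, fell to 42.5% of naive, the glycine transporter gene Slc6a5 to 38.8% and Slc32a1, the vesicular transporter of inhibitory neurons, to 42.8%. These excitatory and inhibitory genes fell by like amounts, and their difference was not tested. With naive pool 1 as the only naive library 4 of the 29 fell, at a median of -0.73. The peptide gene Npy rose 1.88-fold (21.6 ± 1.35 to 40.6 ± 8.16 CPM, q = 0.036), a call lost without any of the naive pools or pool 2 or 3 of dpi 10 (q = 0.0734 to 0.121). Of 40 transmitter receptors 23 fell and none rose (median -1.10). Glrb and Glra1, subunits of the glycine receptor, fell to 44.5% and 21%, the AMPA receptor gene Gria4 to 38.9%, Grm3 to 40.4% and the serotonin receptor gene Htr2c to 45.6%. With library sizes alone 14 of the 40 receptors fell and none rose, and with naive pool 1 as the only naive library 9 fell, at a median of -1.05.

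Genes of mitochondrial energy supply were lower by smaller amounts. Of 61 nuclear genes of the respiratory chain 41 fell and none rose (median Log2FC -0.47, against -0.10 for all genes), and with library sizes alone 22 fell and the median was -0.29. With naive pool 1 as the only naive library 26 of the 61 fell, at a median of -0.49. Sdha, a subunit of complex II, was at 537, 559 and 543 CPM in naive and 308, 316 and 315 CPM at dpi 10 (57.2%, q = 1.12e-06). The complex I genes Ndufv1 and Ndufs1 fell to 59.3% and 54.4% and Uqcrc2 of complex III to 61.1%. Of 18 genes of the tricarboxylic acid cycle 16 fell and 1 rose (median -0.65), with Sucla2 at 49.2%, Pcx at 50.5%, Idh3a at 54.0% and Fh1 at 61.5% of naive. Against naive pool 1 alone 10 of the 18 fell (median -0.69). Of 28 genes of glycolysis and the pentose phosphate pathway 7 rose and 10 fell (median -0.47). The rising genes included Pgd, which makes NADPH (1.98-fold), and the hexokinase genes Hk3 (14.4-fold) and Hk2 (5.93-fold), and Eno2, the enolase of neurons, was among those that fell (50.9%).

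Myelin transcripts were close to naive levels. Of 28 genes of myelin and mature OLs 3 rose and 3 fell, or 10.7% in each direction, below the 13.9% and 18.2% of all genes. With library sizes alone 9 rose and 2 fell, and with the 12 total RNA libraries alone 9 rose and 3 fell. The median Log2FC of -0.09 turned to 0.09 with library sizes alone, so it has no firm sign. Mbp, the myelin basic protein, was at 13170, 11884 and 10872 CPM in naive and at 10849, 12088 and 11726 CPM at dpi 10, with overlap (q = 0.804). Apod, a lipid carrier, rose 1.94-fold and the protease gene Klk6 2.05-fold. Gpr37 and Enpp2 fell to 58.8% and 68.6%. Of 18 genes of OPCs and newly formed OLs 6 rose and 1 fell (median 0.67), the former led by Rnf122 (2.97-fold), Sox4 (2.75-fold) and Tcf7l2, a factor of newly formed OLs (2.45-fold).

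Of 15 Schwann cell and nerve root genes 3 rose (20%, against 13.9% of all genes) and none fell. The count was 1 without naive pool 1 or dpi 10 pool 1 and 8 without naive pool 3. Among them were Pmp22 at 1.86-fold and the neurotrophin receptor gene Ngfr at 3.28-fold. Ngfr was highest in pool 1 (17.6, 5.25 and 8.57 CPM at dpi 10), the pool that held ganglion transcripts. Its call was lost without that pool (q = 0.132) and without naive pool 1 (q = 0.0507), and the part of root tissue in these rises was not tested. Of 28 endothelial and mural genes 6 rose (21.4%) and none fell (median Log2FC 0.49). With naive pool 1 as the only naive library 1 rose, and with the 12 total RNA libraries alone 14 rose and 1 fell. Anpep, an aminopeptidase of pericytes that myeloid cells also carry, rose 53.7-fold, the endothelial cadherin gene Cdh5 3.37-fold and the smooth muscle genes Tagln and Acta2 7.70-fold and 4.54-fold. Of 17 ependymal and cilia genes 3 rose (17.6%, against 13.9% of all genes), namely Vim, Nes and Cfap126, and none fell. The other 14 did not pass, and which cells these rises came from was not tested.

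Cell division genes were above naive at dpi 10. Of 42 tested 25 rose and none fell (median Log2FC 1.81). Mki67, which marks dividing cells, was at 0.787, 0.516 and 0.444 CPM in naive and at 11, 15 and 14 CPM at dpi 10 (22.8-fold, q = 9.54e-08). The helicase gene Mcm3 rose 4.49-fold, the cyclin gene Ccna2 13.2-fold and the spindle gene Tpx2 3.68-fold. Levels stayed low, with at most 15 CPM of Mki67 in any library. The E2F core TTTCCCGC was found on either strand of 3 of 37 promoter windows (8.11%, against 1.67% of all windows), and TTTGAA, a core of the cell cycle homology region, of 17 windows (45.9%, against 12.6%). These shares cover all members of the list with a window, not only those that rose. The window of Mcm3 is shown, where the E2F match lies on the strand opposite to the gene and begins 19 bases after the gene start.
Mcm3 (chr1:20820263-20820562, minus strand): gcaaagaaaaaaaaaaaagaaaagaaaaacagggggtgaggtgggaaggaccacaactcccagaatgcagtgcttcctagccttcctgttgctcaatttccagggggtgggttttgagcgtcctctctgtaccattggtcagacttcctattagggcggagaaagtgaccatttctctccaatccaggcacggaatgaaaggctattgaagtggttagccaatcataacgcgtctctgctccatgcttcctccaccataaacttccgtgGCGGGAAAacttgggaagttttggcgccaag

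Of 17 immediate early genes 8 rose and none fell (median Log2FC 0.69). Atf3, a stress factor of injured neurons and of macrophages, was at 1.54, 0.838 and 0.951 CPM in naive and at 41.9, 45.7 and 38.4 CPM at dpi 10 (37.7-fold), and Junb rose 3.97-fold. Of 21 genes of the ATF4 stress response 5 rose and 3 fell (median 0.06), with Nupr1 at 15.8-fold and Atf5 at 2.13-fold. Of 15 genes of axon regeneration 8 rose and 2 fell (median 0.75). Sprr1a, which injured sensory and motor neurons switch on, was at 0.656, 0.355 and 0.0317 CPM in naive and at 82.0, 114 and 79.0 CPM at dpi 10 (q = 4.13e-08). Klf6 rose 2.40-fold and the tubulin gene Tubb6 10.3-fold.

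Total RNA of dpi 10 was then set against total RNA of dpi 2 and of dpi 42 in direct contrasts. Their fold changes set these libraries against each other, while the naive libraries still share in the scaling and in the estimate of the spread. At dpi 10, 568 genes (3.31%) were higher and 778 (4.53%) lower than at dpi 2. Lysosomal genes were among the former, with 22 of 42 higher and none lower. Ctsd rose from 1648 ± 102 CPM at dpi 2 to 3667 ± 647 CPM, and Man2b1, a lysosomal mannosidase, from 69.1 ± 12.4 to 230 ± 32.4 CPM (Log2FC 1.74 ± 0.12, q = 1.71e-08). Of 25 lipid-laden phagocyte genes 12 were higher and 2 lower than at dpi 2, and of 20 sterol efflux genes 12 were higher and 1 lower. Apoe had the same level at dpi 2 (1864 ± 135 CPM) as in naive (1820 ± 14.3 CPM) within the spread and stood at 17488 ± 1989 CPM at dpi 10 (q = 0.000144 against dpi 2). Collagens followed, with 11 of 25 higher and none lower. Unc93b1, which carries Toll-like receptors to endosomes, and Creg1 were higher as well, by 1.59 and 1.65 on the log2 scale. Prickle1 and Clmn, with Log2FC of 1.41 and 1.62, were lower at dpi 2 (17.2 ± 1.56 and 22.2 ± 1.80 CPM) than in naive (41.6 ± 1.15 and 77.8 ± 9.67 CPM), and at dpi 10 they stood at 45.7 ± 2.5 and 68.0 ± 5.90 CPM.

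Cell division genes had fallen by dpi 10, with 26 of 42 lower than at dpi 2 and none higher. Mki67 was at 69.4 ± 7.41 CPM at dpi 2 and 13.3 ± 2.06 CPM at dpi 10, and the condensin gene Ncapd2 was at 39.9 ± 5.10 CPM at dpi 2 and 13.4 ± 1.33 CPM at dpi 10 (Log2FC -1.57), where its libraries overlapped those of naive cord. Hmox1, which degrades heme, went from 550 ± 110 CPM at dpi 2 to 55.6 ± 10.2 CPM at dpi 10 (Log2FC -3.31 ± 0.26, q = 8.13e-08), still 8.73-fold above naive. Trf (transferrin), Gpd1 (glycerol-3-phosphate dehydrogenase) and Col2a1, a cartilage collagen that the list does not hold, were lower too, by Log2FC of -1.68, -2.28 and -2.57. Of 26 sterol synthesis genes 16 were lower at dpi 10 than at dpi 2 and none higher: the list median against naive was -0.22 at dpi 2, -0.91 at dpi 10 and -0.90 at dpi 42, in contrasts that share the naive libraries. No member of the list of synapse and neuronal cytoskeleton genes differed between dpi 10 and dpi 2 by edgeR or DESeq2 at q under 0.05 (2 higher and 2 lower at an unadjusted p under 0.05), and its median against the same naive libraries was -1.14 at dpi 2. Pool 2 of dpi 2 held 2604 counts of Y-linked genes against at most 13 in the naive and dpi 10 libraries, although the labels give female mice, and without that pool 358 genes were higher and 504 lower (323 and 472 when its total RNA library alone was left out). Counts were also smaller without pool 1 of dpi 10 (345 and 478), without pool 2 (351 and 491) and, for lower genes, without pool 3 (495).

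Of the 3 total RNA libraries of dpi 42, that of pool 2 has labels in conflict: its title and tissue label name immunoprecipitated OL RNA, while its description and the header of its count column name input. It was grouped by the latter. Its neuronal markers summed to 7413 CPM, against 4400 and 4729 CPM in the other total RNA libraries and 193 to 331 CPM in the OL libraries of dpi 42. Pool 2 also stood apart from pools 1 and 3, with 102 CPM of Hox genes 10 to 13 against 17.3 and 16.6 CPM, and 23.3 CPM of Scn10a against 7.21 and 4.16 CPM. On the first principal component it lay at -0.398, and the others at 21.7 and 24.8.

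Against dpi 42, 35 genes (0.204%) were higher and 10 (0.0583%) lower at dpi 10. Of the 35, 6 were on the list of 25 collagens, and Col1a2, Col18a1, Col6a3 and Col1a1 were among those with the smallest p. Col1a1 went from 838 ± 54.9 CPM at dpi 10 to 217 ± 62.2 CPM at dpi 42 (252, 145 and 254 CPM in pools 1, 2 and 3, Log2FC 1.95 ± 0.33, q = 0.014) and Col18a1, the precursor of endostatin, from 75.7 ± 9.31 to 15.5 ± 4.14 CPM (2.29 ± 0.34, q = 0.00606). Sprr1a stood at 91.5 ± 19.2 CPM and at 10.2 ± 2.46 CPM at dpi 42 (3.17 ± 0.53, q = 0.013). Of the lysosomal genes 6 were higher at dpi 10 than at dpi 42, Grn and Hexa among them. Apoe was at 16431 ± 3112 CPM at dpi 42 (q = 0.988). This contrast rested on single libraries. Without pool 2 of dpi 42 no gene passed in either direction by edgeR (550 higher and 465 lower at an unadjusted p under 0.05), and q ran from 0.0739 for Col1a2 to 0.299 for Hexa among the genes named here as higher. Without pool 1 of dpi 42 6 genes were higher and none lower (792 at an unadjusted p under 0.05), and without pool 3 of dpi 42 30 were higher and 19 lower. Without pool 2 of dpi 10 no gene passed in either direction by edgeR (539 higher and 601 lower at an unadjusted p under 0.05), without pool 1 of dpi 10 16 were higher and none lower (733 at an unadjusted p under 0.05), and without pool 3 of dpi 10 28 were higher and 3 lower. DESeq2 on all libraries called 125 higher and 82 lower. For the genes named here as higher q ran from 0.0785 for Col1a2 and Col18a1 to 0.288 for Hexa without pool 2, and Hexa also missed the threshold without pool 1 (q = 0.118).

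**Figure D4:**
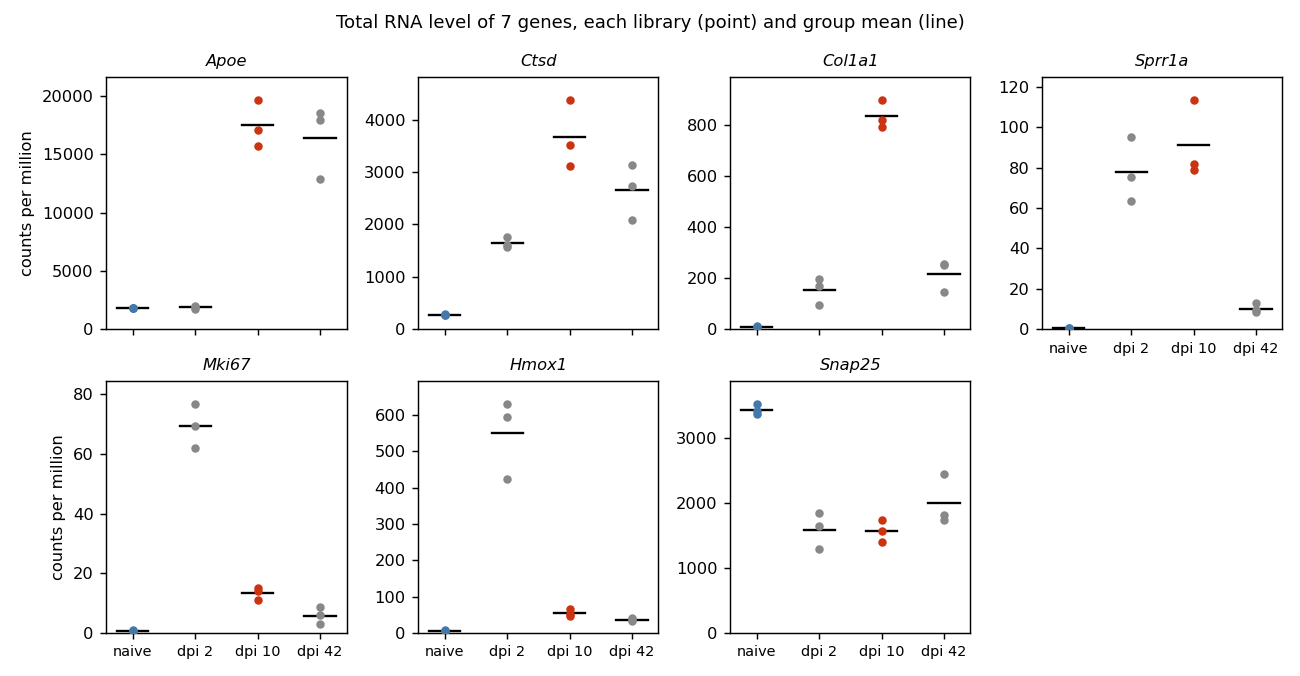
CPM of 7 genes in the total RNA libraries of naive cord and of dpi 2, 10 and 42 (1 point per library). Hmox1 and Mki67 are highest at dpi 2, Col1a1 is highest at dpi 10, Apoe and Ctsd stay high at dpi 42, and Snap25 is low at every time after injury.

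The OL-tagged ribosomes of the same tissue gave a second reading of each gene. The difference between the change in OL RNA and that in total RNA was tested as an interaction. The OL change was higher for 784 genes (4.57%) and lower for 530 (3.09%). The total and OL library of a pool come from the same lysate, and with these paired in the fit, an alternative chosen after the data were seen, the counts were 771 and 538. They were lower without pool 2 of dpi 10 total RNA (414 and 338), the former also without naive pool 2 (491) or 3 (484) and with the offset for length and GC content (412), and both with naive pool 1 as the only naive total RNA library (130 and 142). Lysosomal genes had 23 of 42 with a lower change in OL RNA than in total RNA and 2 a higher one, and the list median was 0.25 in OL RNA against 1.31 in total RNA. Of the 20 sterol efflux genes 11 had a lower OL change and none a higher one (8 and none with the pairing), at medians of 0.62 and 1.96. Ctsd changed by 3.73 in total RNA and by 0.81 in OL RNA on the log2 scale (difference -2.93, q = 2.21e-09). Lyz2, a macrophage gene, changed by 8.19 in total and by 8.30 in OL RNA (q = 0.981 for the difference), so its transcripts were present in the OL libraries as well. Its mean level at dpi 10 was 121 CPM in OL RNA against 2496 CPM in total RNA. The paper reports apparent contamination of OL RNA with microglia and macrophage transcripts after SCI, so a rise in OL RNA need not come from OLs. Of the 25 phagocyte genes 1 had a higher and 5 a lower change in OL RNA (1 and 3 with the pairing), Gpnmb among the latter (difference -3.83, q = 0.000911).

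Sterol synthesis genes fell in both kinds of RNA. In OL RNA 19 of 26 fell (median Log2FC -1.06), and for none did the OL change differ from the total RNA change by edgeR or DESeq2 at q under 0.05 (2 differed at an unadjusted p under 0.05). Srebf2 changed by -0.77 in total and by -0.78 in OL RNA, and Cyp51 by -1.03 and -1.34. Of 61 respiratory chain genes 26 had a higher OL change and none a lower one. The list median was -0.47 in total RNA and 0.14 in OL RNA, where 3 of the 61 rose and 4 fell. Of the 30 synapse and cytoskeleton genes 6 had a higher OL change. Serpina3n, a member of the reactive astrocyte list, rose more in OL RNA than in total RNA (5.66 against 3.51, q = 3.35e-05).

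**Figure D5:**
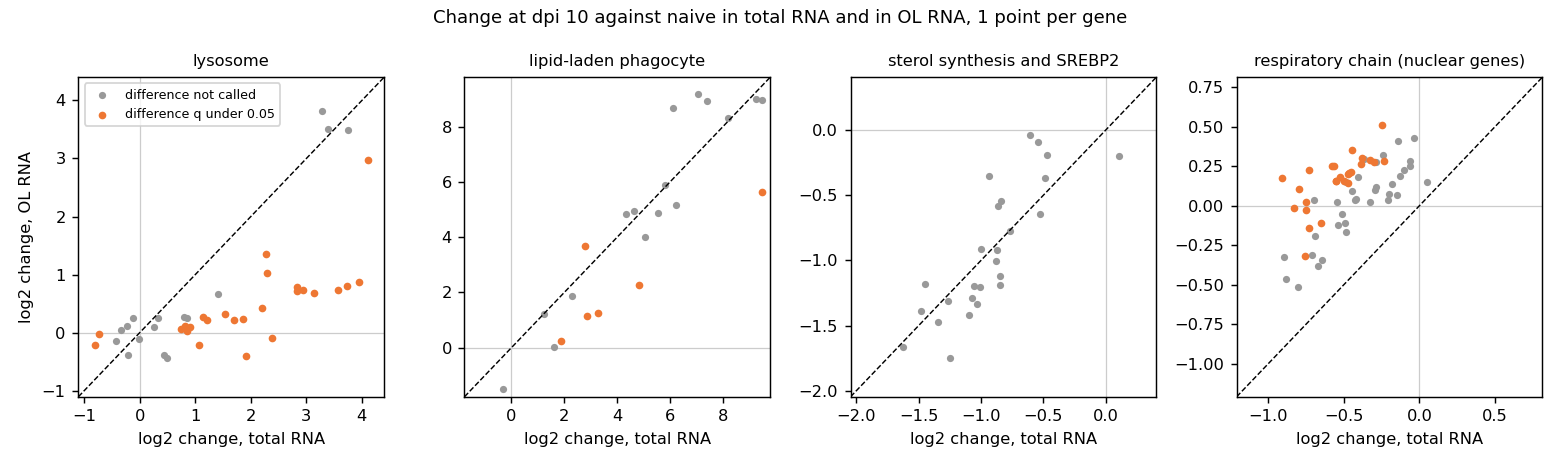
Log2FC of dpi 10 over naive in total RNA (x axis) and in OL RNA (y axis) for genes of 4 lists (1 point per gene, orange where the changes differ at q under 0.05, with the line of equal change). Lysosomal genes fall below the line, sterol synthesis genes lie on it at negative values and respiratory chain genes lie above it. Genes with at most 3 counts in every naive library are left out.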

How the data were processed

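Polyadenylated RNA of cleared spinal cord lysates (total RNA) and of immunoprecipitated OL ribosomes was sequenced in 24 libraries of 8 groups. The authors aligned reads with STAR and deposited raw counts per gene; the submitters' processing notes name HTSeq 0.10.0, FastQC 0.10.1 and the build mm10 (GRCm38.p6). The table lists 21965 genes, of which 17167 with at least 10 counts over all libraries were tested. The study's filter of 10 counts and its joint analysis of all libraries were kept.

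Counts were fitted with edgeR 4.0.16 (R 4.3.3, TMM scaling, quasi-likelihood F test) in 1 model with a mean for each of the 8 groups, so that all groups shared the estimate of spread. Contrasts were dpi 10 against naive, dpi 2 and dpi 42 in total RNA, and the OL change less the total change. A gene was called at a Benjamini-Hochberg q under 0.05. The fitting was also run on counts simulated from the naive total RNA means, with few genes changed. That setting does not test the scaling or the shared spread in the real libraries. CPM values carry TMM factors and are not scaled by gene length, so levels are compared between libraries and not between genes. A floor of 3 counts in a library equals 0.0860 to 0.0984 CPM in these 6 libraries, and covers counting error only. Reads without molecular identifiers are not independent molecules.

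Replicates are tissue pools, and p-values measure the spread between pools within all 8 groups, not only within those compared. Total RNA libraries with the same number were not paired: the deviations of same-numbered naive and dpi 10 libraries correlated at -0.062, -0.0096 and 0.0014. The total and OL library of a pool share a pool code in the count table; their deviations correlated at 0.0415 to 0.24 in naive and dpi 10 pools, and the test of the OL change was repeated with them paired. Replicates differed by more than sampling noise, with a median chi-square per gene of 2.59 to 4.87 at 1 degree of freedom.

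Genes named are, among those whose groups did not overlap and whose mean was at least 1 CPM, the 12 of smallest p in each direction past 2-fold, the 6 of each with the largest change and at least 5 CPM in the higher group, up to 5 in each direction of the direct contrasts, and the leading members by p of 41 gene lists (932 genes, 926 tested; Clec7a, Mx2 and Ahsp were not matched, and Gzma, Il10 and Hamp fell below the filter). Some of the genes these rules name are not reported here. Members and lists were chosen with earlier results of these data known. Some genes, such as Zbp1, are on more than 1 list, so the counts of different lists are not independent. Genes named beyond the rule, among them cell type markers and members named because they did not pass or fell, were chosen after their values were seen. Promoter windows came from RefSeq (GRCm38.p6) and matched 13177 of the genes tested. Alternatives were DESeq2 1.42.0 and its size factors, library sizes, other filters, smaller sets of libraries, a replicate block, a length and GC offset, pairing of total and OL libraries and leaving out each total RNA library; Python 3.11.15 (pandas 2.3.3, numpy 2.4.6, matplotlib 3.10.9) made summaries and figures.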

Additional observations from a re-analysis of the deposited data

Results flagged for a closer look

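The change after injury differed between times. In the test of the difference itself, 568 genes were higher and 778 lower at dpi 10 than at dpi 2, and 35 were higher and 10 lower than at dpi 42. Against dpi 2 the leading higher genes were Man2b1 (Log2FC 1.74), Prickle1 (1.41), Unc93b1 (1.59), Clmn (1.62) and Creg1 (1.65), and the leading lower genes were Gpd1 (-2.28), Trf (-1.68), Col2a1 (-2.57), Hmox1 (-3.31) and Ncapd2 (-1.57). Against dpi 42 they were Col1a2 (1.5), Col18a1 (2.29), Col6a3 (1.74), Sprr1a (3.17) and Col1a1 (1.95), all higher at dpi 10, and no gene passed without pool 2 of dpi 10 or pool 2 of dpi 42 (539 and 550 higher, 601 and 465 lower at an unadjusted p under 0.05).

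The change from naive to dpi 10 also differed between the 2 kinds of RNA, with a higher change in OL RNA for 784 genes and a lower one for 530 by the interaction test.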

How the results depend on the processing

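Of the 213 values of named genes, none that passed the threshold changed sign under any alternative run. Many of these genes were chosen by p, change or lack of overlap in the same counts that each alternative refits. Reversals were therefore unlikely from the start, and their absence is not independent support. Fitting only the 12 total RNA libraries raised the count of rising genes against naive to 4013, and gave 1695 higher and 1903 lower genes against dpi 2 and 645 and 437 against dpi 42. Fitting only the 6 libraries raised the rising count to 4591 and that past 2-fold to 2420. With library sizes alone 1839 genes fell, 195 of them past 2-fold, and 77 were higher than at dpi 42. With the length and GC offset 811 fell past 2-fold, 348 were higher than at dpi 2, 5 lower than at dpi 42, and 412 had a higher OL change. DESeq2 called 125 higher and 82 lower than at dpi 42. Without pool 2 of dpi 2, 358 were higher and 504 lower than at dpi 2. With naive pool 1 as the only naive total RNA library, an alternative chosen after seeing the data that assumes a lone sample to vary like the other groups, 1103 genes rose and 1349 fell (849 and 299 past 2-fold), 19 were higher and none (0) lower than at dpi 42 (802 lower at an unadjusted p under 0.05), and 130 had a higher and 142 a lower OL change; 22 named values missed the threshold, and 31 of 82 counts of rising or falling list members moved by over 1.5 times. With the replicate block 13 named values missed the threshold, and without pool 2 of dpi 10 total RNA 14 did. With the 12 libraries alone 9 named values newly passed it. The cause was not tested, beyond the fewer samples in these fits.

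Leaving out each total RNA library in turn, those of dpi 2 and dpi 42 only in their own contrast with dpi 10 and by a choice made after seeing the data, gave 1900 to 2097 rising and 2367 to 2611 falling genes (1318 to 1443 and 398 to 501 past 2-fold), 323 to 511 higher and 472 to 736 lower than at dpi 2, 0 to 30 higher and 0 to 19 lower than at dpi 42, and 414 to 582 with a higher and 338 to 461 with a lower OL change.

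Total RNA libraries of different groups share only a number. With a replicate block 2199 genes rose and 2889 fell against naive, 259 were higher and 285 lower than at dpi 2, and 3 were higher and none (0) lower than at dpi 42 (523 lower at an unadjusted p under 0.05). With the total and OL library of each tissue pool paired, 771 genes had a higher and 538 a lower OL change, and no named value changed its call. Genes near 0 in naive cord have no upper limit on their fold change at this depth. Of the 24 lists in which edgeR called no falling gene against naive, 4 held 1 at an unadjusted p under 0.05 and 1 by DESeq2 (Ccne1 of the cell cycle list). Of the 7 lists with no rising gene, 1 held 3, by both counts.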
